A study of Mus musculus with 12 samples.

Results

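Dnah11 and its neighbours at the distal end of mouse chromosome 12 are described here over all 12 arrays of the series. The genes were selected on position and on a known result: Dnah11 had shown the largest rise in Ts1Cje cells, and the others (Sp4, Cdca7l, Rapgef5, Esyt2, Ncapg2, Zfp386, Macc1, Itgb8 and Sp8) lie beside it. Probe sets were chosen by gene symbol, dim ones included, which gave 13 of the 45141 probe sets on the array for 9 of the 10 genes, out of 17097 genes with a symbol of their own. No probe set carried Itgb8 as its single symbol in the annotation used, so this gene was not analysed here. A filter on dim values, which required an intensity above the array's 40th percentile in at least 3 arrays, kept 10 of the 13 probe sets, for 7 genes. The probe sets of Sp8 and Macc1 and the dimmest of 3 for Rapgef5 did not pass it. Because the choice used the difference between the genotypes, the genotype differences of these genes are given as descriptions with a standard error (SE) and no test. The interaction tested below is the change of these differences with Trib1, so it is not independent of the choice.

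The series measured RNA in 4 groups of 3 arrays each. The B6 group held hematopoietic cells labelled wild type, and the Ts1Cje group held hematopoietic cells of Ts1Cje mice. The B6 Trib1 and Ts1Cje Trib1 groups held lines of acute myeloid leukaemia (AML) cells that express Trib1, one for each of these backgrounds by their titles. Those titles add WT after Trib1, which the labels do not explain. All groups were grown in 10% fetal bovine serum with 5 ng/ml of the cytokine IL-3, received no treatment, and gave 100 ng of RNA per array. Trib1 expression and leukaemic state went together, so they cannot be told apart in a comparison of lines with hematopoietic cells. The labels do not give the vector that carried Trib1, the ages of the mice, or whether the arrays of a group came from separate mice, lines or cultures. The p-values therefore speak only of how these arrays vary, and that variation may be technical. In bulk samples, fewer cells of a type and less RNA per cell cannot be told apart.

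Ts1Cje mice carry an extra copy of part of chromosome 16 as a model of Down syndrome, and the extra segment is attached to the distal end of chromosome 12. The labels give neither the copy number nor the sequence of the chromosome 12 genes at this junction, so they may not be intact in Ts1Cje cells. Dnah11 encodes an axonemal dynein heavy chain, a motor of the outer arms of motile cilia, and its loss in mice disturbs the left-right placement of organs. Blood cells do not build motile cilia. The neighbouring genes have unrelated functions: Sp4 and Sp8 are zinc-finger factors that bind GC boxes, Zfp386 is a KRAB zinc-finger protein, and Cdca7l is a nuclear partner of Myc and of the chromatin tether LEDGF. Rapgef5 activates the small GTPase Rap1, Itgb8 is the integrin beta subunit that helps to activate latent TGF-beta, and Macc1 promotes expression of the receptor Met. Esyt2 tethers the endoplasmic reticulum to the plasma membrane, and Ncapg2 is a subunit of condensin II.

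Array medians lay between 30.5 and 32.0, maxima between 8041 and 8685, and the 40th percentile between 21.98 and 23.52. Within a group, the 12 pairs of arrays correlated at 0.996 to 0.999 across kept probe sets, and the 54 pairs between groups at 0.930 to 0.994. All 8 markers of hematopoietic cells, among them Ptprc, Cd53 and Spi1, were kept, with summed intensities from 16720 to 21410. The kept probe set of Trib1 read 68.2 to 82.1 in the groups without Trib1 and 41.8 to 48.7 in those labelled with it, opposite to the labels. Whether its probes lie in the introduced sequence is not given in the sources used here, so it does not check the labels, and the Trib1 groups are named as labelled.

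The order of the genes from the proximal to the distal side in the reference gene table (RefSeq, GRCm38.p6) was Zfp386, Esyt2, Ncapg2, Rapgef5, Cdca7l, Dnah11, Sp4, Sp8, Itgb8 and Macc1. Cdca7l and Dnah11 are on opposite strands, and their 3′ ends overlap in that table. Of the 21 genes listed distal to Dnah11, 6 were protein coding and 3 of these (Sp4, Sp8 and Macc1) had a probe set. Of the adjacent genes, Cdca7l read lower in Ts1Cje cells, and so did Sp4 by its brighter probe set. By its other probe set Sp4 differed by -0.0075 (SE 0.037). Because Dnah11 read far higher there, the 250 bases before the start of Dnah11 and of the genes on either side of it are shown. They are those of the reference genome and were not read from Ts1Cje cells. Each runs 5′ to 3′ on the gene's own strand, at chr12:117843611-117843860 on the plus strand for Cdca7l, chr12:118199044-118199293 on the minus strand for Dnah11 and chr12:118301441-118301690 on the minus strand for Sp4. Capitals mark GC boxes (GGGCGG) and CCAAT boxes (CCAAT) found on either strand, and no match overlapped another.
Cdca7l: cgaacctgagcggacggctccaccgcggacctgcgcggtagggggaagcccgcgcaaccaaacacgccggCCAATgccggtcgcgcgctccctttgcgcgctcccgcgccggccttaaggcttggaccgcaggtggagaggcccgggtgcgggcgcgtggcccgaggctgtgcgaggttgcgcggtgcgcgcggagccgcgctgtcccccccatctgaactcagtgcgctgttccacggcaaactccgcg
Dnah11: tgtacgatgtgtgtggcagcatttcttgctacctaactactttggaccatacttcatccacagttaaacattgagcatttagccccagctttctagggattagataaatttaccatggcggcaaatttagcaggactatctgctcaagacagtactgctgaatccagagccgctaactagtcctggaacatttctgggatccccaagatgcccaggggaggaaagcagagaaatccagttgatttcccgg
Sp4: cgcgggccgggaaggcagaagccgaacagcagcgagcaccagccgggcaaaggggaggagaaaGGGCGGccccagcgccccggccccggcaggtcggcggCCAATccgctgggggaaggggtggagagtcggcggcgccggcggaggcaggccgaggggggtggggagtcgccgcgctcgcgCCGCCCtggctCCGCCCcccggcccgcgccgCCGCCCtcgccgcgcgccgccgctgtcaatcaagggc

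The Dnah11 window held 46.0% G and C with 4 CpG dinucleotides, and neither box. The Cdca7l window held 73.2% with 38 CpG dinucleotides and 1 CCAAT box, and the Sp4 window 80.0% with 37 CpG dinucleotides, 4 GC boxes and 1 CCAAT box. Over 32851 windows of the same length in RefSeq, the median was 52.4% G and C and 6 CpG dinucleotides, so the Dnah11 window lay somewhat below the middle and those of both neighbours far above it. A GC box occurred in 32.7% of them, a CCAAT box in 33.8% and a TATA box (TATAAA) in 12.4%, and none of the 3 printed windows held a TATA box. These matches describe the letters of the windows and not binding.

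Dnah11 read far higher in both Ts1Cje groups than in both B6 groups. Its probe set (1421544_PM_at) had intensities of 78.5, 69.4 and 70.1 in B6 cells, and of 1300.4, 1327 and 1367 in Ts1Cje cells. In the lines it read 80.4, 73.0 and 81.8 in B6 Trib1, and 1352, 1407 and 1172 in Ts1Cje Trib1. No Ts1Cje array came near a B6 array, and within each genotype the arrays with and without Trib1 overlapped. The mean of B6 was 72.7 ± 5.06 (SD, n = 3) and that of Ts1Cje 1332 ± 33.6, while B6 Trib1 had 78.4 ± 4.75 and Ts1Cje Trib1 had 1310.2 ± 123. The ratio of means between the genotypes was 18.3 without Trib1 and 16.7 with it.

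**Figure D1:**
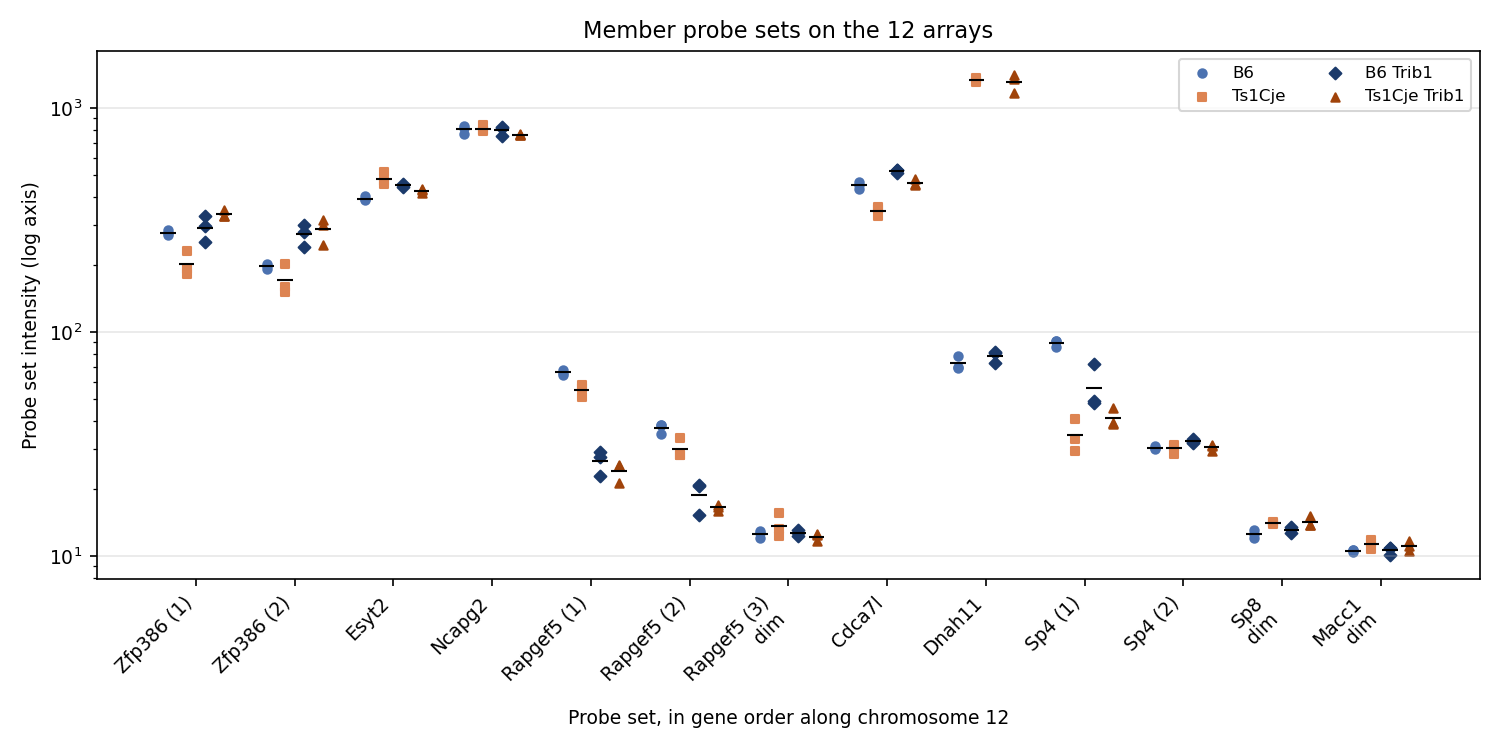
Intensity (log axis) of the 13 probe sets on the 12 arrays, in gene order along chromosome 12, with a point per array and a black line at each group mean; numbers in brackets separate probe sets of 1 gene, the brightest first. Dnah11 read 69.4 to 81.8 on the 6 B6 and B6 Trib1 arrays and 1172 to 1407 on the 6 Ts1Cje and Ts1Cje Trib1 arrays.

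On the log2(intensity + 15) scale, which draws differences of dim probe sets towards 0, the Dnah11 difference was 3.94 (SE 0.066) without Trib1 and 3.82 (SE 0.066) with it. These ranked first of 28543 kept probe sets in both genotype comparisons, which is the value that led to the choice of Dnah11. Among kept probe sets with a single symbol, the next largest rise was 2.30 for Stfa3, a cystatin-like protease inhibitor of myeloid cells, without Trib1. With Trib1 it was 2.19 for Xist, the RNA that coats the inactive X chromosome. The part of X-linked state in the differences between the Trib1 lines was not tested. With an offset of 1 the Dnah11 differences were 4.18 and 4.04.

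No difference in Dnah11 with Trib1 passed the test in either background. The change was 0.09 (SE 0.066) from B6 to B6 Trib1, with an adjusted p of 0.247 (limma, Benjamini-Hochberg over all kept probe sets), and -0.027 (SE 0.066) from Ts1Cje to Ts1Cje Trib1, with an adjusted p of 0.767. The interaction, by which the Ts1Cje minus B6 difference changes when Trib1 is present, was -0.12 (SE 0.094, adjusted p = 0.325). For Dnah11 it is made of the genotype differences that led to the choice, so nothing is read from its test. The threshold was 0.05, and after quantile normalization the B6 difference was 0.18 and passed (adjusted p = 0.0229). Over all alternatives the adjusted p of the B6 difference ran from 0.0229 to 0.485. For the Ts1Cje lines the Dnah11 difference turned to 0.05 when replicate 3 of Ts1Cje Trib1, the lowest array of its group at 1172, was left out.

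The kept genes of motile cilia had smaller genotype differences than Dnah11. Dnah11 was chosen for having the largest rise, so any other gene had to rise less. Of 53 genes listed for axonemal dynein and motile cilia, 34 had a probe set and 16 were kept. Between Ts1Cje and B6, 3 of the 16 were higher and 4 lower, with a median of 0.02 against 0.0028 over all kept probe sets. Of all kept probe sets, 19.2% passed as higher and 27.6% as lower in that comparison. The shares were 8.91% and 6.82% between the Trib1 lines. With Trib1 they were 30.4% and 30.3% in B6, and 30.4% and 23.7% in Ts1Cje. The counts of every list below stand beside these shares, which only roughly match them. The lists count 1 probe set per gene, whereas the shares cover all kept probe sets. With 1 probe set per gene, 2925 of 12560 were higher and 3677 lower between Ts1Cje and B6. Between the Trib1 lines these counts were 1489 and 1209. With Trib1 they were 4283 and 3907 in B6, and 4278 and 3364 in Ts1Cje. Dnah2, another axonemal heavy chain, was higher by 0.31 (SE 0.060, adjusted p = 0.000953), whereas Rfx3, a ciliary transcription factor, changed by -0.41 (SE 0.058, adjusted p = 8.27e-05). Rfx3 had means of 32.16 in B6 and 20.36 in Ts1Cje, and Spag1, also among the 4 lower, 24.15 and 20.47. The percentile used by the filter on dim values lay between 21.98 and 23.52. Both genes were thus below it in Ts1Cje and may have been kept for their B6 values, so nothing is read from their tests. Between the Trib1 lines, 3 were higher and the other 13 did not pass, with a median of 0.02 against 0.0021. The largest of these was Ccdc40, an axonemal assembly factor, at 0.63 (SE 0.048, adjusted p = 9.53e-07), and Dnah8 was higher by 0.21 (adjusted p = 0.00311). Dnah2 also changed with Trib1, by -1.96 (adjusted p = 9.08e-12) in B6 and -2.07 (adjusted p = 2.77e-12) in Ts1Cje.

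**Figure D2:**
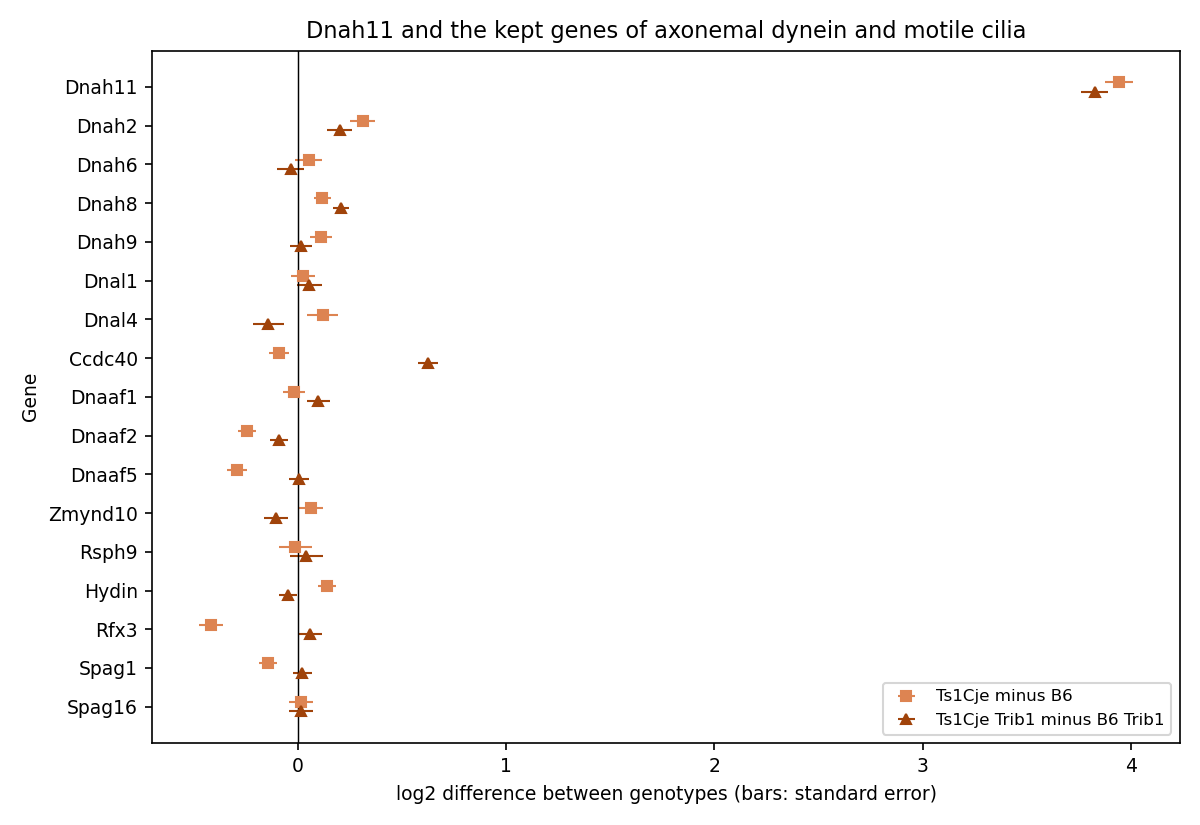
Log2 difference between the genotypes (bars, SE) for Dnah11 and the 16 kept genes of axonemal dynein and motile cilia, without Trib1 (squares) and with it (triangles). Dnah11, chosen for having the largest rise, lay at 3.94 and 3.82, and Ccdc40 at 0.63 with Trib1 was the farthest of the other genes from 0.

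Markers of motile ciliated epithelium were at low values in all groups. Of 11 such markers, 8 had a probe set and 2 (Dnah9 and Tppp3) were kept. Their summed intensity was 145.2 to 148.7 in B6, 154.5 to 167.6 in Ts1Cje, 146.0 to 157.5 in B6 Trib1 and 147.0 to 156.1 in Ts1Cje Trib1. The sum was thus slightly higher in every Ts1Cje array than in every B6 array, and overlapped between the lines. Foxj1, the factor that defines these cells, had group means from 13.33 to 14.97 and was not kept. Of the other lists, 5 of 6 markers of other epithelium, 4 of 8 of stroma and endothelium and 2 of 6 of neural cells were kept. The stroma and endothelium sum was 552.8 to 572.2 in B6 and 477.3 to 583.3 in Ts1Cje, but 943.9 to 1045 in B6 Trib1 and 934.9 to 1140 in Ts1Cje Trib1. Pecam1, an adhesion molecule of endothelium and some blood cells, had means of 312.3 and 300.9 without Trib1 and 740.4 and 855.4 with it. Pdgfrb was also higher, at 41.71 and 40.04 without Trib1 and 102.2 and 71.94 with it. The other kept markers of this list were lower with Trib1. Kdr had 112.7 and 100.7 without it and 74.76 and 68.35 with it, and Cdh5 had 40.45 and 26.42, then 15.81 and 15.38. The sum of the other epithelium list was 914.8 to 996 in B6, 841.1 to 912.6 in Ts1Cje, 1052 to 1173 in B6 Trib1 and 1123 to 1134 in Ts1Cje Trib1. Within it Epcam, an epithelial adhesion molecule, had means of 131.6, 74.3, 210.9 and 429 in that order of groups. The brightest marker of this list, Cdh1, had 725.1, 694.2, 812.3 and 604.8, and Krt18 had 34.17, 26.14, 24.6 and 24.16. Krt8 and Cldn4 had means from 24.13 to 31.57. Both sums were higher on every Trib1 array than on every array without it, so they move with the Trib1 comparisons given below. Their single markers did not all do so. The neural sum ran from 133.0 to 158.5 on all arrays. The part of these markers in the differences was not tested.

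Across the 12 arrays, the probe sets whose pattern was most like that of Dnah11 were those of Dtnbp1 (Pearson r = 0.972), Psmg1 (0.953), Naglu (0.952), Cbr1 (0.943), Cryzl1 (0.936) and Gfus (0.933). Psmg1, Cbr1 and Cryzl1 are on chromosome 16, and the other genes on chromosomes 13, 11 and 15. Their genotype differences lay between 0.13 (Gfus, with Trib1) and 0.75 (Cbr1, with Trib1). Those of Dnah11, chosen for the largest rise, were 3.94 and 3.82. The most opposed were Wdfy1 (-0.958) and Ifi205 (-0.946) on chromosome 1 and Inf2 (-0.946) on chromosome 12. Of the neighbours, Sp4 had r = -0.827, Cdca7l -0.629 and Esyt2 0.458, while Zfp386, Ncapg2 and Rapgef5 lay between -0.230 and -0.172. The arrays share their groups, so these values are a description and carry no p.

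The neighbours of Dnah11, which was chosen for the size of its rise, differed much less between the genotypes. Between Ts1Cje and B6, the arrays of the groups did not overlap for 7 of the 10 kept probe sets, 2 higher (Dnah11 and Esyt2) and 5 lower (Sp4, Cdca7l, Zfp386 and both of Rapgef5). Over all kept probe sets, the arrays of these groups were without overlap for 25.4% as higher and 31.2% as lower in Ts1Cje, and 19.2% and 27.6% passed the test. Between the Trib1 lines 2 were higher without overlap (Dnah11 and Zfp386) and 4 lower (Cdca7l, Esyt2 and both of Sp4), where 17.2% of all kept probe sets were higher and 14.1% lower without overlap, and 8.91% and 6.82% passed the test. The median genotype difference of the 10 probe sets was -0.21 without Trib1 and -0.07 with it, against 0.0028 and 0.0021 over all kept probe sets. Nothing is read from these counts, since the choice of the genes used the same comparisons.

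Sp4, the first gene distal to Dnah11, read lower in Ts1Cje cells than in B6 cells by its brighter probe set only. Its brighter probe set (1437508_PM_at) had intensities of 91.1, 91.6 and 85.7 in B6, and of 40.8, 33.2 and 29.6 in Ts1Cje. With Trib1 the values were 49.3, 48.1 and 72.01 in B6 Trib1, and 39.1, 38.8 and 45.6 in Ts1Cje Trib1. The 3 B6 arrays were the highest of all 12, and every Ts1Cje Trib1 array lay below every B6 Trib1 array, although only narrowly for 2 of these. The genotype difference was -1.08 (SE 0.11) without Trib1 and -0.33 (SE 0.11) with it, the latter -0.18 without replicate 3 of B6 Trib1, which read 72.01. From the bottom, these ranked 155 and 870 of 28543. The ratio of means was 2.59 (B6 over Ts1Cje) and 1.37 (B6 Trib1 over Ts1Cje Trib1).

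With Trib1, Sp4 fell in the B6 background by 0.56 (SE 0.11, adjusted p = 0.00072), with all 3 B6 Trib1 arrays below all B6 arrays. In the Ts1Cje background the difference was 0.18 (SE 0.11, adjusted p = 0.181) and the groups overlapped. The interaction was 0.75 (SE 0.16, adjusted p = 0.00206). It is the change of the genotype difference of Sp4, which was smaller between the lines than between the hematopoietic cells. The other Sp4 probe set (1421504_PM_at) read 28.6 to 33.4 on all 12 arrays and gave other values. Its differences were -0.0075 (SE 0.037) and -0.06 (SE 0.037) between the genotypes, and no test of it passed (adjusted p from 0.128 to 0.791). The probe sets of Sp4 therefore gave different results. The second read close to the array medians (30.5 to 32.0) throughout, so a difference in it could hardly show.

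Sp8, the next protein-coding gene, read 12.07 to 15.02 on all arrays and was too dim to test. Macc1, farther along, read 10.1 to 11.9 and was not tested either. Both lay below the 40th percentile on all 12 arrays, so neither gave a measure of the chromosome beyond Sp4. Of 21 other genes listed for the Sp and Klf factors, 18 had a probe set and 17 were kept. Between Ts1Cje and B6, 4 of these were higher and 3 lower (median 0.06), against 19.2% and 27.6% of all kept probe sets. Klf16 changed by -0.55 (adjusted p = 2.01e-05). Comparing the lines, 1 was higher and 3 lower (median -0.05). With Trib1, 4 were higher and 4 lower in B6 and 1 and 4 in Ts1Cje, the largest being Klf4, a factor of monocyte differentiation, at -2.84 (adjusted p = 1.50e-11) and -4.33 (adjusted p = 1.23e-13).

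Cdca7l, on the proximal side of Dnah11, was lower in both Ts1Cje groups than in their B6 counterparts and higher with Trib1 in both backgrounds. Its probe set read 467, 454 and 437 in B6 and 354, 360.2 and 329 in Ts1Cje. The lines gave 527, 528 and 511 in B6 Trib1 and 456, 453 and 484 in Ts1Cje Trib1. Neither genotype comparison had overlapping groups, and all Trib1 arrays lay above the arrays of their own background without it. The genotype difference was -0.37 (SE 0.045) without Trib1 and -0.16 (SE 0.045) with it. Cdca7l rose with Trib1 by 0.20 (SE 0.045, adjusted p = 0.00202) in B6 and by 0.40 (SE 0.045, adjusted p = 4.33e-06) in Ts1Cje.

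The interaction for Cdca7l was 0.20 (SE 0.064, adjusted p = 0.0236). It was no longer past the threshold after quantile normalization (0.16, adjusted p = 0.0884), without replicate 1 of B6 (0.18, adjusted p = 0.0599) or without replicate 3 of Ts1Cje (0.16, adjusted p = 0.060). Among 11 listed partners of Cdca7 and LEDGF, 8 were kept. Against 27.6% of all kept probe sets, 6 of these 8 were lower in Ts1Cje than in B6 (median -0.43). They included Psip1, which encodes LEDGF, at -0.56 (adjusted p = 1.49e-07) and Myc at -0.57 (adjusted p = 8.21e-06). Comparing the Trib1 lines, 1 of the 8 was lower and the other 7 did not pass (median 0.06), the 1 being Uhrf1, a reader of hemimethylated DNA, at -0.15 (adjusted p = 0.0296). With Trib1, 3 rose and 2 fell in B6, whereas 6 rose in Ts1Cje and the other 2 did not pass. Of all kept probe sets, 30.4% rose and 30.3% fell in B6, and 30.4% rose in Ts1Cje. In Ts1Cje Psip1 changed with Trib1 by 0.83 (adjusted p = 3.55e-10) and Myc by 0.88 (adjusted p = 3.06e-08).

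Zfp386, the most proximal of the genes, was higher with Trib1 in the Ts1Cje background. Its brighter probe set (1451146_PM_at) read 272, 285 and 276 in B6 and 229, 192 and 181 in Ts1Cje. The AML lines read 298, 252 and 328 in B6 Trib1 and 329, 329 and 350.2 in Ts1Cje Trib1. The Ts1Cje arrays were the 3 lowest of the 12, and the Ts1Cje Trib1 arrays the 3 highest. The genotype difference was -0.45 (SE 0.088) without Trib1 and 0.20 (SE 0.088) with it, the latter 0.10 without replicate 2 of B6 Trib1. With Trib1 the change was 0.71 (SE 0.088, adjusted p = 1.13e-05) in Ts1Cje and 0.06 (SE 0.088, adjusted p = 0.547) in B6, and the interaction was 0.65 (SE 0.12, adjusted p = 0.00119).

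The second Zfp386 probe set (1421139_PM_a_at) read 201, 198 and 191 in B6 and 202, 151 and 158 in Ts1Cje. The Trib1 lines gave values of 278, 239 and 301 in B6 Trib1 and 301, 315 and 246 in Ts1Cje Trib1. Here the genotypes overlapped, with differences of -0.20 (SE 0.11), or -0.32 without replicate 1 and -0.13 without replicate 2 of Ts1Cje, and 0.07 (SE 0.11). With 1 array left out the latter ran from -0.019, without replicate 2 of B6 Trib1, to 0.17, without replicate 3 of Ts1Cje Trib1. By this probe set all Trib1 arrays lay above all arrays without it. Zfp386 rose by this measure in both backgrounds, by 0.44 (SE 0.11, adjusted p = 0.00401) in B6 and by 0.71 (SE 0.11, adjusted p = 8.16e-05) in Ts1Cje. Its interaction was 0.27 (SE 0.15, adjusted p = 0.169), but 0.39 (adjusted p = 0.0284) without replicate 1 of Ts1Cje, the array at 202. The probe sets thus gave the same rise in Ts1Cje and different results in B6. Of 10 listed partners of KRAB repression, 9 were kept. In Ts1Cje 1 of these was higher than in B6 and 6 lower (median -0.28), against 19.2% and 27.6% of all kept probe sets. The 1 higher was Morc3 at 0.51 (adjusted p = 2.17e-05), and Trim28, the main corepressor, changed by -0.40 (adjusted p = 4.50e-05). Between the Trib1 lines 1 was higher and 1 lower (median 0.0086), and with Trib1 1 rose and 4 fell in B6 and 4 rose and 3 fell in Ts1Cje.

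Rapgef5 fell with Trib1 in both backgrounds. Its brightest probe set (1455137_PM_at) read 64.4, 65.8 and 67.9 in B6 and 58.1, 56.1 and 51.1 in Ts1Cje. The corresponding lines read 29.2, 22.8 and 27.6 in B6 Trib1 and 21.1, 25.3 and 25.5 in Ts1Cje Trib1. All Trib1 arrays lay far below the arrays without it, the genotypes did not overlap without Trib1, and the lines overlapped. Rapgef5 fell by 0.97 (SE 0.064, adjusted p = 2.65e-08) in B6 and by 0.85 (SE 0.064, adjusted p = 7.23e-08) in Ts1Cje, ratios of means of 2.49 and 2.30 (without over with Trib1). The interaction was 0.12 (SE 0.090, adjusted p = 0.301), and the genotype difference was -0.21 (SE 0.064) without Trib1 and -0.09 (SE 0.064) with it.

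A second Rapgef5 probe set (1455840_PM_at) read 34.9, 38.4 and 38.3 in B6 and 28.1, 28.1 and 33.8 in Ts1Cje. Among the lines it gave 20.5, 20.7 and 15.2 in B6 Trib1 and 15.9, 17.0 and 16.6 in Ts1Cje Trib1. It exceeded the 40th percentile on 6 arrays, those without Trib1, so it was kept through the groups where it was high. Having passed the filter that way it had to read lower with Trib1, so its difference is given by these values alone, with no test, and it is left out of the counts of changes with Trib1. The brightest one exceeded that percentile on 10 arrays, and the third (1445255_PM_at) read 11.7 to 15.6 and exceeded it on none of the 12.

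Of 18 other genes listed for Rap signalling, 15 were kept, and their changes with Trib1 went both ways. In B6, 6 rose and 5 fell (median 0.04), and in Ts1Cje 6 rose and 8 fell (median -0.14). Of all kept probe sets, 30.4% rose and 30.3% fell in B6, and 30.4% rose and 23.7% fell in Ts1Cje. Rapgef2, another Rap exchange factor, rose by 0.81 (adjusted p = 2.27e-09) and 0.66 (adjusted p = 1.21e-08), opposite to Rapgef5. Rap1gap2, which inactivates Rap1, rose by 1.20 (adjusted p = 2.00e-10) in B6. Rap2b, a small GTPase, fell by 0.48 (adjusted p = 6.27e-07) and 1.06 (adjusted p = 1.02e-10). Between the genotypes 6 were higher and 4 lower without Trib1 and 3 and 3 with it.

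Esyt2 moved with Trib1 in opposite directions in the 2 backgrounds. Its probe set read 404, 392 and 387 in B6 and 515, 459 and 472 in Ts1Cje. The line arrays read 443, 459 and 455 in B6 Trib1 and 435, 416 and 429 in Ts1Cje Trib1. The B6 arrays were the 3 lowest of the 12, the Ts1Cje arrays the highest, and all 4 pairs of groups compared were without overlap. Esyt2 rose by 0.19 (SE 0.045, adjusted p = 0.00280) in B6 and fell by 0.17 (SE 0.045, adjusted p = 0.00565) in Ts1Cje, with an interaction of -0.36 (SE 0.064, adjusted p = 0.00063). The genotype difference was 0.28 (SE 0.045) without Trib1 and -0.08 (SE 0.045) with it.

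The 13 kept of 15 listed genes of extended synaptotagmins and membrane contact sites gave 3 higher between Ts1Cje and B6, where the other 10 did not pass (median 0.07). Of all kept probe sets, 19.2% were higher there. Of the extended synaptotagmins in the list, Esyt1 was higher by 0.20 (adjusted p = 0.0423), and its interaction of -0.39 (adjusted p = 0.0101) had the sign of that of Esyt2. Esyt3, with dim group means from 29.78 to 33.96, had an interaction of -0.17 that did not pass (adjusted p = 0.102). None of the 13 passed limma's test between the Trib1 lines (median -0.0048), where 1 was higher and 2 lower at an unadjusted p under 0.05 and the smallest adjusted p was 0.0591, for Osbpl5. With Trib1, 5 rose and 3 fell in B6 and 4 rose and 5 fell in Ts1Cje.

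Ncapg2 passed no test. Its probe set read 828, 767 and 816 in B6, 836, 788 and 801 in Ts1Cje, 813, 748 and 820.0 in the B6 Trib1 lines and 754, 767 and 756 in Ts1Cje Trib1. Of the groups compared, all overlapped except Ts1Cje and Ts1Cje Trib1, where the highest line array (767) lay below the lowest Ts1Cje array (788). The genotype difference was 0.0087 (SE 0.046) without Trib1 and -0.06 (SE 0.046) with it. With Trib1 the difference was -0.018 (SE 0.046, adjusted p = 0.746) in B6 and -0.09 (SE 0.046, adjusted p = 0.126) in Ts1Cje, and the interaction was -0.07 (SE 0.065, adjusted p = 0.399). The condensin and cohesin list gave 1 higher and 9 lower of 13 kept genes between Ts1Cje and B6 (median -0.14), against 19.2% and 27.6% of all kept probe sets. Among the lower were the condensin subunits Ncapd2 at -0.37 (adjusted p = 3.56e-05) and Ncapg at -0.31 (adjusted p = 0.000559). Comparing the Trib1 lines, Smc4 was lower (-0.16, adjusted p = 0.0103) and the other 12 did not pass (median -0.06). With Trib1, 4 rose and 3 fell in B6 and 5 rose and 1 fell in Ts1Cje.

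For Itgb8 and Macc1, whose own levels were not measured or too dim, the listed partners were measured. Of 19 genes of integrin alpha-v partners and TGF-beta activation, 15 were kept, with 2 higher and 8 lower in Ts1Cje than in B6 (median -0.16) and 3 higher and 4 lower between the Trib1 lines (median -0.02). Of all kept probe sets, 19.2% were higher and 27.6% lower in the former comparison, and 8.91% and 6.82% in the latter. Itgb3, another partner of integrin alpha-v, changed by -1.16 (adjusted p = 2.04e-09) between Ts1Cje and B6 and rose with Trib1 by 0.85 (adjusted p = 5.52e-09) and 1.75 (adjusted p = 1.82e-12). With Trib1, 5 of these genes rose and 7 fell in B6, and 5 rose and 6 fell in Ts1Cje. Of 10 genes of the MET axis, 9 were kept, 6 of them higher in Ts1Cje than in B6 and the other 3 not past the threshold (median 0.20), and 3 higher and 5 lower between the Trib1 lines (median -0.18). Met itself changed by -0.72 (adjusted p = 4.96e-05) between the Trib1 lines, and Hgfac, which activates the ligand of Met, rose with Trib1 by 3.03 (adjusted p = 9.36e-14) and 3.37 (adjusted p = 1.80e-14). With Trib1, 6 rose and 3 fell in B6, and 4 rose and 3 fell in Ts1Cje.

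**Figure D3:**
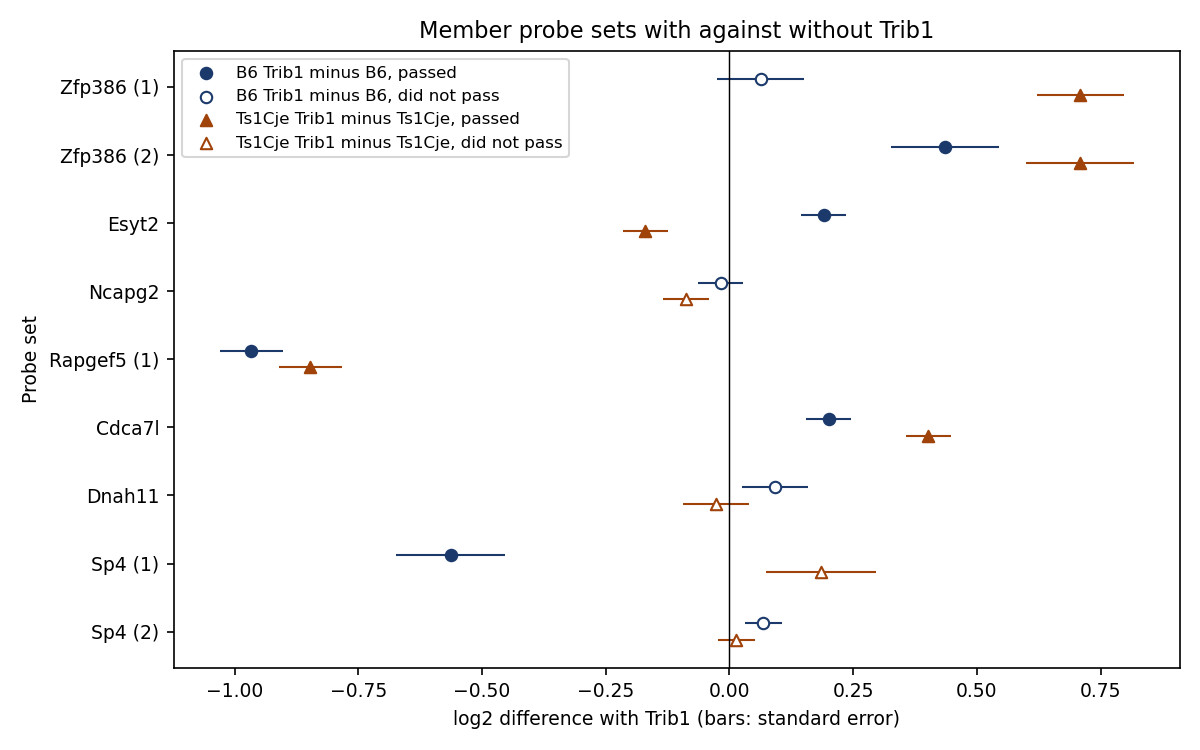
Log2 difference with Trib1 (bars, SE) for 9 kept probe sets, leaving out the second of Rapgef5, in the B6 background (circles) and the Ts1Cje background (triangles), filled where the adjusted p was under 0.05. Rapgef5 lay below 0 in both backgrounds (-0.97 and -0.85), Cdca7l above 0 in both (0.20 and 0.40), and Esyt2 on opposite sides (0.19 and -0.17).

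Counted over the 9 kept probe sets other than the second of Rapgef5, 3 rose and 2 fell with Trib1 in B6, and 3 rose and 2 fell in Ts1Cje. Those that rose were Cdca7l, Esyt2 and the second Zfp386 probe set in B6, and Cdca7l and both of Zfp386 in Ts1Cje. Those that fell were the brighter of Sp4 and the brightest of Rapgef5 in B6, and Esyt2 and the brightest of Rapgef5 in Ts1Cje. Over all kept probe sets, 30.4% were higher and 30.3% lower in B6 Trib1 than in B6, and 30.4% were higher and 23.7% lower in Ts1Cje Trib1 than in Ts1Cje, so the share among these genes is near that of the whole array. The interaction was above 0 for 3 probe sets (Sp4, Cdca7l and the brighter one of Zfp386) and below 0 for 1 (Esyt2), against 25.8% and 16.3% of all kept probe sets. The medians of the 9 were 0.07 and 0.014 with Trib1 and 0.12 for the interaction, against 0.022, 0.020 and 0.015 over all kept probe sets.

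Other measured genes of the same stretch differed far less than Dnah11. Between Zfp386 and Rapgef5, Vipr2, Wdr60 and Gm10421 were kept, each with group means between 24.3 and 27.7, and none of these 3 differed between the genotypes by the test (adjusted p from 0.487 to 0.973). They read 22.78 to 29.42 on the 12 arrays, close to the 40th percentile, so a difference in them could hardly show. Ptprn2 and Gm31336 in the same interval were too dim to test. Of the 40 kept genes proximal to Dnah11, 35 were not among those described above. Between Ts1Cje and B6, 6 of these were higher and 12 lower, from -0.64 for Ppp1r13b to 0.53 for Adssl1, with a median of -0.04. Between the lines, 3 were higher and 4 lower, from -1.11 for Pld4 to 0.28 for Ppp1r13b, with a median of -0.0084. Of all kept probe sets, 19.2% were higher and 27.6% lower between Ts1Cje and B6, and 8.91% and 6.82% between the lines. Dnah11 was chosen for the size of its difference, so its place outside this range was fixed by the choice.

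**Figure D4:**
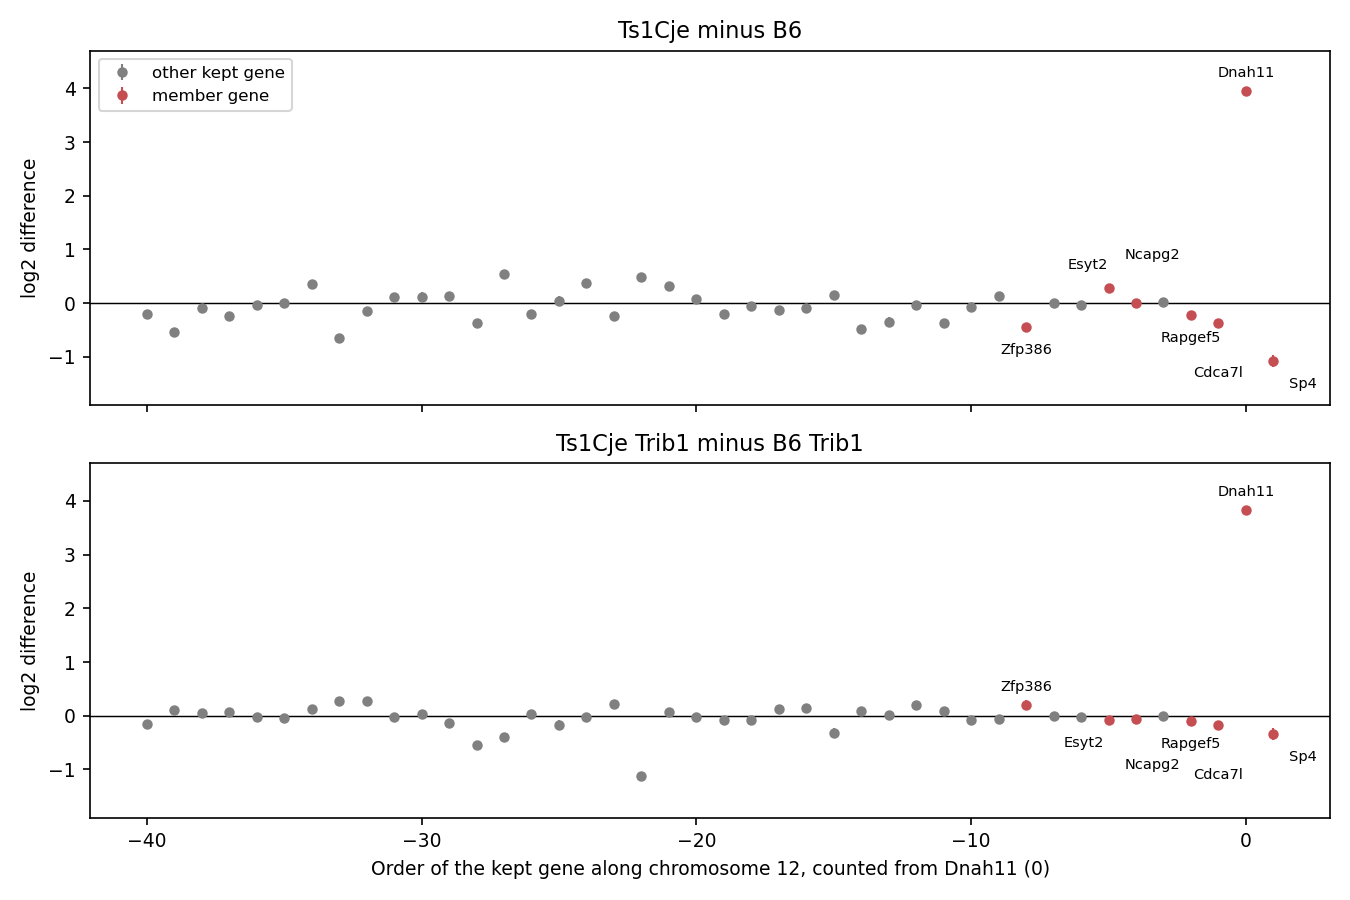
Log2 difference between the genotypes (bars, SE, often smaller than the points) for the kept genes of distal chromosome 12, in their order counted from Dnah11, for Ts1Cje minus B6 (top) and Ts1Cje Trib1 minus B6 Trib1 (bottom). Red points are the 7 kept genes described here, with Dnah11 at 3.94 and 3.82 and Sp4 at -1.08 and -0.33, and grey points are the 35 others.

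The largest differences among these 35 genes changed between the comparisons. Without Trib1 they were Ppp1r13b at -0.64 (adjusted p = 6.28e-07), Trmt61a at -0.54 (adjusted p = 2.82e-05), Adssl1 at 0.53 (adjusted p = 1.36e-06) and Pld4 at 0.48 (adjusted p = 1.39e-05). With Trib1 they were Pld4 at -1.11 (adjusted p = 1.37e-08), Inf2 at -0.53 (adjusted p = 4.38e-06), Adssl1 at -0.39 (adjusted p = 6.57e-05) and Pacs2 at -0.32 (adjusted p = 0.0224). Pld4, Adssl1 and Ppp1r13b thus had genotype differences of opposite sign with and without Trib1, and Inf2 was lower in both (-0.37 without Trib1). Of the chosen genes, by their leading probe sets, Dnah11, Sp4, Cdca7l and Rapgef5 had the same sign in both comparisons, and Zfp386 and Esyt2 opposite signs. Ncapg2 lay near 0 without Trib1 (0.0087, SE 0.046), so no sign is read for it.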

How the data were processed

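RNA of 12 samples was measured on 12 Affymetrix arrays, 3 per group. The deposited values were linear intensities per probe set, credited to MAS5 per the submitters' processing notes. The arrays use perfect-match probes alone, and summarisation, scaling and genome build are not given in the sources used here. Probe sets were named from the platform annotation, which can be old, and only those with a single symbol were named (28898 of 45141, with 551 carrying several, 15588 none and 104 controls).

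Control probe sets were left out. Probe sets above their array's 40th percentile in at least 3 of 12 arrays were kept (28543), with or without a symbol, and log2(intensity + 15) was fitted in limma 3.58.1 (R 4.3.3) with 1 mean per group, no further scaling and moderated variances. Tests were two-sided, with Benjamini-Hochberg adjustment over all kept probe sets and a threshold of 0.05. The fit was tested on simulated data. The number of arrays limits the precision.

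The members and gene lists were chosen with earlier results of these data known. All member probe sets are accounted for, the brightest kept one leading. From each list, taken from general knowledge, up to 4 genes with the smallest adjusted p per comparison could be named. For likeness to Dnah11, the 6 most alike and 3 most opposed genes by Pearson r were named. Of the 40 kept proximal genes, those with the 4 largest differences in each genotype comparison were named. Cell type markers, RefSeq gene order and promoter windows (GRCm38.p6) were used as given, with minus-strand windows checked for orientation. Stfa3 and Xist were named after their values were seen. Tried as alternatives were centring arrays on their medians, quantile normalization, other offsets (1, or a floor at 15), other filters (none, or the 60th percentile), 1 probe set per gene, leaving out cross-hybridizing probe sets, robust moderation with a variance trend, fitting only the compared groups, a replicate block, and leaving out each array in turn.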

Additional observations from a re-analysis of the deposited data

Results flagged for a closer look

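For 4 of the 7 measured genes, or 4 of their 10 kept probe sets, the difference with Trib1 differed between the B6 and Ts1Cje backgrounds, by limma's interaction with Benjamini-Hochberg adjustment. Over all kept probe sets 25.8% passed this test above 0 and 16.3% below 0, so the share among these probe sets is near that of the whole array. The interaction is made of the genotype differences known when the genes were chosen, so these calls are limited by that choice. The interaction was 0.65 (SE 0.12, adjusted p = 0.00119) for the brighter Zfp386 probe set, which was higher with Trib1 in Ts1Cje and not detectably changed in B6. It was 0.75 (SE 0.16, adjusted p = 0.00206) for the brighter Sp4 probe set, which was lower with Trib1 in B6. It was -0.36 (SE 0.064, adjusted p = 0.00063) for Esyt2, which rose in B6 and fell in Ts1Cje. For Cdca7l, which rose in both, it was 0.20 (SE 0.064, adjusted p = 0.0236). The second probe sets of Zfp386 and Sp4 did not pass this test (adjusted p = 0.169 and 0.419), and the cause of the disagreement was not tested.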

How the results depend on the processing

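Of 612 tests of members with Trib1 under alternatives, which leave out the second Rapgef5 probe set, 602 kept their direction and their side of the threshold, 3 lost the call, 2 gained it and 5 changed sign, all 5 among differences that had not passed. Those were Zfp386 (brighter probe set, B6 Trib1 minus B6) at -0.019 without replicate 3 of B6 Trib1 (range with 1 array left out -0.019 to 0.16), Ncapg2 in the same comparison at 0.0034 without replicate 1 of B6 and 0.023 without replicate 2 of B6 Trib1 (range -0.050 to 0.023), Dnah11 (Ts1Cje Trib1 minus Ts1Cje) at 0.050 without replicate 3 of Ts1Cje Trib1 (range -0.080 to 0.050), and the dimmer Sp4 probe set in that comparison at -0.012 without replicate 1 of Ts1Cje. The calls lost or gained are given with Cdca7l, Dnah11 and Zfp386. The Dnah11 genotype difference lay within 3.92 to 4.20 in cells without Trib1 and within 3.77 to 4.06 between the lines.

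Over all kept probe sets, 13377 passed for Ts1Cje minus B6, 4489 between the Trib1 lines, 17316 and 15450 with Trib1 in B6 and Ts1Cje, and 12001 for the interaction. With 1 probe set per gene, where 12560 were tested, the counts were 6602, 2698, 8190, 7642 and 6109. Leaving out 1 array gave 10984 to 14958, 3268 to 5015, 14793 to 18107, 14328 to 15570 and 10232 to 14006. Replicate numbers did not pair the samples: deviations of same-numbered arrays correlated from -0.451 to 0.368, and 3 of 12 arrays resembled their own number best. With the replicate block the counts were 12843, 4064, 16810, 15169 and 11368. Signal near background limits Sp8, Macc1 and the dim probe sets of Rapgef5 and Sp4. It also limits Vipr2, Wdr60, Gm10421, Rfx3 and Spag1, and the brightest Rapgef5 probe set in the Trib1 groups.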
